A study of Mus musculus with 12 samples.

Results

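The genes described here are the NF-kappaB transcription factors, their inhibitors and some of the genes they control. They were chosen by name: every probe set of the array whose annotation names Nfkb1, Nfkb2, Rela, Relb, Nfkbia, Nfkbie, Tnfaip3, Birc3, Icam1 or Vcam1. This gave 19 of 45101 probe sets, for 9 of the 10 genes. In the annotation used no probe set was named for Nfkb1, and that gene is not analysed here. Total RNA of 2 mouse striatal cell lines was measured on 12 Affymetrix mouse arrays, 3 for each of 4 groups. The groups were Q111 cells after 6 h at 42 °C, Q111 cells at 33 °C, Q7 cells after 6 h at 42 °C, and Q7 cells at 33 °C. Q111 cells are the line STHdhQ111/Q111, made from knock-in embryos whose 2 huntingtin alleles carry an expanded polyglutamine tract. Q7 cells are the line STHdhQ7/Q7, from embryos with the wild-type tract. Both lines were grown at 33 °C with the selection drug G418 and used up to passage 15. The labels give 1 line for each genotype, so line and genotype cannot be told apart. They do not say that replicates were separate cultures, so each p-value reflects only the spread among the arrays at hand, and that spread may be technical. The comparisons ask what heat shock did to these genes in either line, whether the effects were unequal, and where the lines stood apart with and without heat.

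NF-kappaB factors are dimers of Rel-domain proteins. Rela pairs mainly with the p50 product of Nfkb1, and Relb with the p52 product of Nfkb2. In resting cells they are held in the cytoplasm by IkappaB proteins, among them Nfkbia (IkappaB alpha) and Nfkbie (IkappaB epsilon). Signals from cytokine and Toll-like receptors activate the IKK kinases, which mark IkappaB for destruction and free the factors. Freed factors switch on inflammatory, adhesion and survival genes, and also Nfkbia, Nfkbie, Nfkb2, Relb and Tnfaip3, which feed back on the pathway. Tnfaip3 (A20) is a ubiquitin-editing enzyme that ends the signal, and Birc3 (cIAP2) is a ubiquitin ligase of the TNF receptor complex. Icam1 and Vcam1 are adhesion molecules of the cell surface that bind leukocyte integrins. In brain tissue the pathway is best known from glia and vessels under inflammation.

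Promoter windows of 7 of the 10 genes were at hand, 10 windows of 300 bases, each with 250 bases before and 50 after a gene's start (RefSeq, GRCm38.p6). A kappaB consensus of 10 letters, searched on both strands, was found in 6 of the 10 windows, belonging to Nfkb2, Nfkbia, Nfkbie and Tnfaip3, and in 8.46% of the 32851 windows of this length. The windows below belong to these 4 genes, because the feedback loop runs through such sites and because the genes differed in their values: Nfkbie and Nfkb2 were lower after heat shock in both lines, Tnfaip3 passed the test in Q7 cells, and Nfkbia passed in neither line. Each is written 5′ to 3′ on the strand of the gene, and capitals mark the consensus. The Nfkbie window is chr17:45555450-45555749 (plus strand), with a match 106 bases before the start. That of Nfkb2 is chr19:46304487-46304786 (plus strand), with overlapping matches 39 and 38 bases before the start and another at 11. That of Tnfaip3 is chr10:19015361-19015660 (minus strand), with matches 125 and 12 bases before the start. That of Nfkbia is chr12:55492598-55492897 (minus strand), with a match 29 bases before the start.
Nfkbie: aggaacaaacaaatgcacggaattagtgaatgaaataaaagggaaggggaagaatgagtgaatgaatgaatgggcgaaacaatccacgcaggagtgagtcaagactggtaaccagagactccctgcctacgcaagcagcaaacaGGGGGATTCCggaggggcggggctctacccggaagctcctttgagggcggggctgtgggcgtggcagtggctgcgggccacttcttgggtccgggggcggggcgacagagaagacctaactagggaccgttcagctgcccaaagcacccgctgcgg
Nfkb2: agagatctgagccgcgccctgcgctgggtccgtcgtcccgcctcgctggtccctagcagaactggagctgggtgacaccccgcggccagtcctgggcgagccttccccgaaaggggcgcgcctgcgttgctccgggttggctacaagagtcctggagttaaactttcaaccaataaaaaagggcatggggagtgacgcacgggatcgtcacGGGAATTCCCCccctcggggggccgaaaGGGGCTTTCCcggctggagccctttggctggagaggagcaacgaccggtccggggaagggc
Tnfaip3: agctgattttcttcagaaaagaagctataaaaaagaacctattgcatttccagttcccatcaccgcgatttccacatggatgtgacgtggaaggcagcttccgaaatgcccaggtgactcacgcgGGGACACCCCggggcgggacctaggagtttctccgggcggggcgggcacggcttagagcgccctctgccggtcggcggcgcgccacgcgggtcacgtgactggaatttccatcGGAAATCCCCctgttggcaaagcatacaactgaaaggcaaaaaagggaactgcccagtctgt
Nfkbia: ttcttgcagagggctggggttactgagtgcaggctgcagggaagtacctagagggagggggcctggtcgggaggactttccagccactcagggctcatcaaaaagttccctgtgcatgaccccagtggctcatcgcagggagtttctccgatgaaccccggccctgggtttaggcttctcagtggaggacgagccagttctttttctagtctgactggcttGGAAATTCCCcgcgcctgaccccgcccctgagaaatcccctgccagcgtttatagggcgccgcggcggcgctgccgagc

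The core of a heat shock element, GAANNTTC, the motif of the heat shock factors, was in 0 of the 10 windows and in 7.86% of all windows, a count that says only that these letters are not in these windows. For the kappaB consensus, the windows of Icam1, Birc3 and Rela and the Tnfaip3 window starting at 19011914 had no match. The consensus was GGGRNNYYCC (R is A or G, Y is C or T, N is any base), and only exact matches were counted. The Icam1 window holds tggaaattcc, which departs from it in the first letter. A window without a match may therefore still hold a kappaB site. Nfkb2 had several windows, and those starting at 46305445 and 46305680 overlap and share a match. The genes were chosen by name for this pathway, so their share beside that of all windows is no test. A match is a run of letters and not evidence of binding.

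The authors deposited RMA values on a log2 scale, 1 for each probe set and array, and these are called levels below. Levels of different probe sets cannot be compared, since each probe set has its own affinity. Differences are on the log2 scale with their standard error (SE) or 95% interval. They were tested with limma on all 45037 probe sets that are not controls, and a difference passed at a Benjamini-Hochberg adjusted p under 0.05. The number of arrays limits the precision. The array carries 27 probe sets for bacterial transcripts whose RNA was not spiked in, and levels up to their highest value, 5.14, were taken as background range. The RNA came from whole cultures, so fewer expressing cells and less RNA per cell cannot be told apart.

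The heat-induced Hsp70 gene was read first as a check of the labels. Hspa1a averaged 12.43 ± 0.26 in Q111 cells after heat shock against 5.95 ± 0.33 at 33 °C, and 11.45 ± 0.04 in Q7 cells after heat shock against 5.96 ± 0.37 at 33 °C (SD, n = 3 each). Huntingtin (Htt) was expressed in every group, with means between 6.71 and 8.87. Replicate 3 of the heat-shocked Q111 cells stood apart from its group, with a mean correlation with the other two of 0.957 against 0.971 and 0.976. Its upper quartile of levels, 8.06, was the lowest of the 12 arrays. The excess of 3′ over 5′ signal of the actin control, a measure of RNA quality, moved with heat shock: it was 0.99 to 1.39 in Q111 cells after heat shock and 0.49 to 1.14 at 33 °C, and 1.35 to 1.60 in Q7 cells after heat shock and 0.38 to 0.69 at 33 °C. The median of the brightest probe sets of all genes also moved: centring on it adds 0.73 to each heat shock difference in Q111 cells and 0.35 in Q7 cells, 0.37 to the difference of these effects, 0.38 to the lines after heat shock and 0.0023 to the lines at 33 °C. Centring on the median of all probe sets, which was planned, adds -0.05 in Q111 cells and 0.03 in Q7 cells. With it 18112 probe sets passed in Q111 cells and 10323 in Q7 cells, against 18952 and 10864 as deposited. The centring on the brightest probe sets, called centring on the gene median below, was not planned. Results are given as deposited. The markers of striatal projection neurons were mixed. Of 7 measured, the dopamine receptor gene Drd2 alone was in background range on all arrays. By group mean, 3 of the 7 were above background range in Q111 cells after heat shock and 1 at 33 °C. In Q7 cells these were 4 and 3. Group means of Foxp1 ran between 10.50 and 11.68, those of Tac1 between 3.28 and 7.38, and those of Drd1 between 4.26 and 6.93. Those of Ppp1r1b ran between 4.68 and 5.01, within background range. Of 8 fibroblast and mesenchymal markers, 6 were above background range by mean in every group and 2 were in it on all arrays. The collagen gene Col1a1 averaged 11.96 to 13.16 over the groups. Of 8 endothelial markers 6 were in background range on all arrays, as were 5 of 10 microglial and macrophage markers. Averaged over a list, the endothelial markers lay between 4.33 and 4.49 on the heat-shocked Q111 arrays, 4.31 and 4.37 on the Q111 arrays at 33 °C, 4.43 and 4.57 on the heat-shocked Q7 arrays, and 4.52 and 4.72 on the Q7 arrays at 33 °C. The microglial list lay between 4.27 and 4.70 on every array.

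Most of these genes were lower after heat shock in both lines. By the brightest probe set of each gene, 7 of 9 genes passed in Q111 cells, 6 of them lower, where 45.7% of all genes passed and 27.2% were lower. In Q7 cells 7 of 9 passed too, 6 of them lower, where 28% of all genes passed and 16.8% were lower. Nfkb2, Relb, Nfkbie, Birc3 and Vcam1 were lower in both lines, Rela passed the test in Q111 cells and not in Q7 cells, Tnfaip3 passed in Q7 cells and not in Q111 cells, and Icam1 was the one gene higher in both.

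Over probe sets, 9 of 19 passed in Q111 cells, 8 lower and 1 higher, beside 42.1% of all probe sets (22.3% lower and 19.8% higher). The members' share of 47.4% was close to that background. In Q7 cells 9 of 19 passed, 8 lower and 1 higher, beside 24.1% of all probe sets (14.1% lower and 10% higher). The median difference of the 19 probe sets was -0.33 in Q111 cells and -0.63 in Q7 cells, beside 0.05 and 0.02 over all probe sets. Centring on the gene median turns the Q111 median to 0.40 and gives -0.28 in Q7 cells, beside 0.78 and 0.37 over all probe sets. The arrays did not overlap between temperatures for 10 probe sets in Q111 cells (51.3% of all did not) and for 11 in Q7 cells (43.2%). Without replicate 3 of the heat-shocked Q111 cells, 10 member probe sets passed in Q111 cells, 9 lower and 1 higher, beside 36.8% of all. The Q7 count rested on single arrays: it was 4 without replicate 3 of either Q7 group and 5 without replicate 2 of either. With the actin 3′ to 5′ signal as a covariate, 7 member probe sets passed in Q111 cells, 6 lower and 1 higher (16.3% of all). In Q7 cells 0 passed by limma (1.26% of all), and 1 had an unadjusted p under 0.05. That signal did not overlap between the temperatures in Q7 cells, so it is hard to tell apart from heat shock there. The SE then grew: Nfkb2 1425902_a_at gave -1.49 ± 0.61 in place of -1.71 ± 0.29, and Birc3 1421392_a_at -0.80 ± 0.70 in place of -1.13 ± 0.34. The loss of calls in Q7 cells therefore decides nothing. The part of RNA quality in these differences was not tested. Under centring on the gene median, 13 passed in Q111 cells, 6 lower and 7 higher, among 72.5% of all probe sets, and 6 in Q7 cells, 5 lower and 1 higher, among 29.5%.

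**Figure D1:**
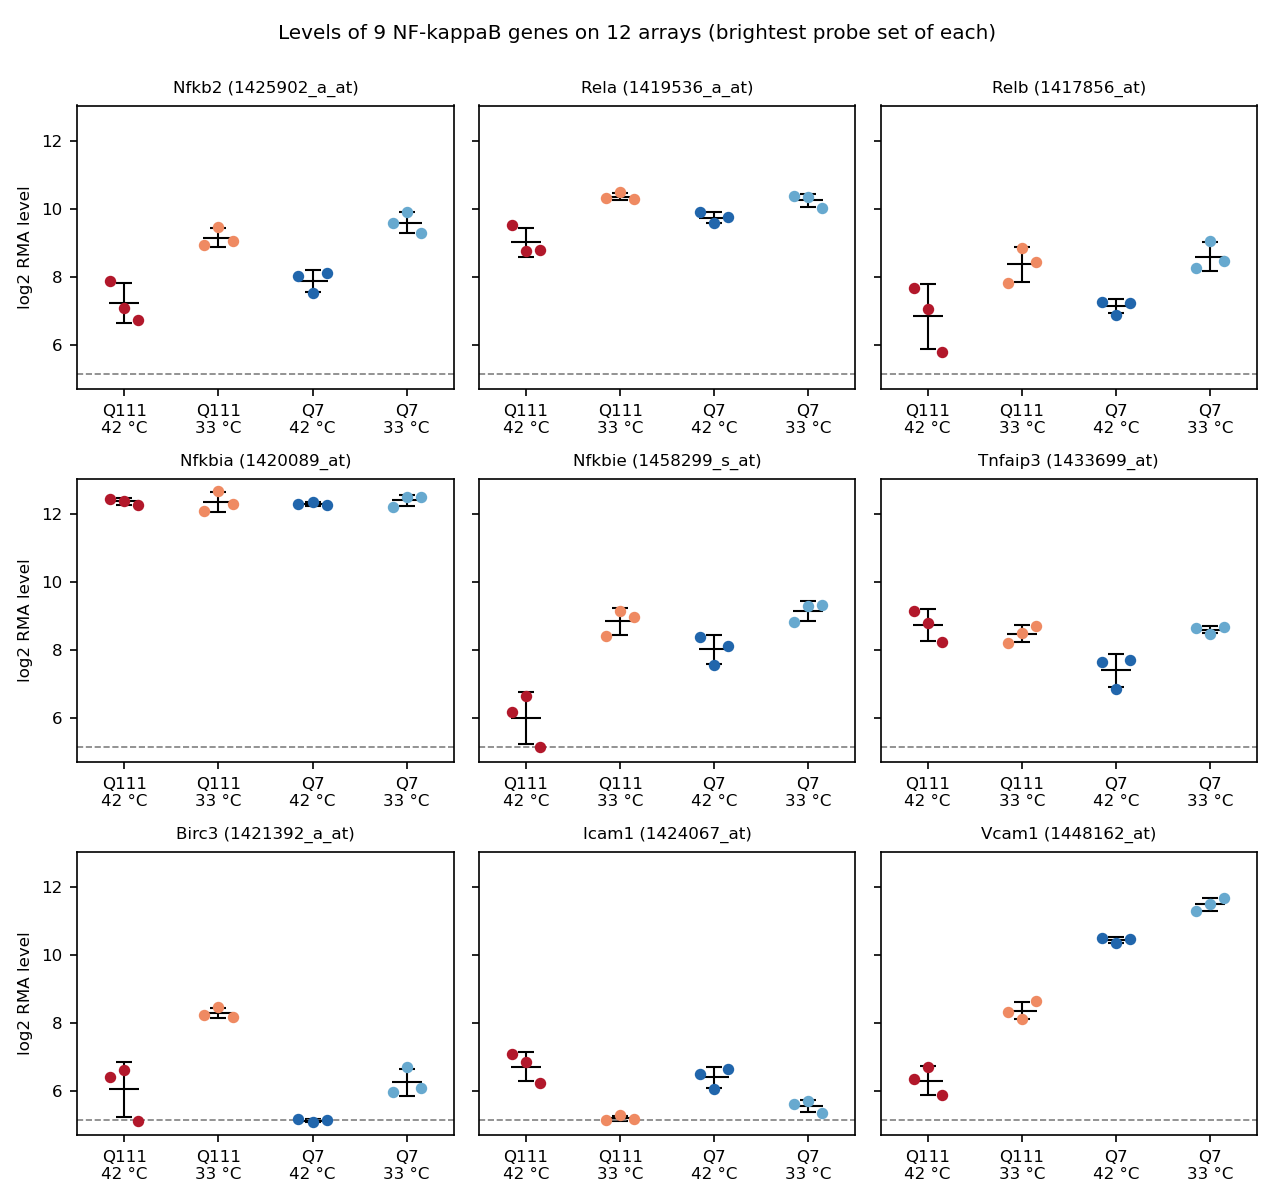
Log2 RMA level of the brightest probe set of each of the 9 measured genes, 1 point per array, by group; bars are the group mean ± SD and the dashed line is the top of background range (5.14). Nfkbia stayed between 12.10 and 12.68 on every array, while Vcam1 spanned 5.88 to 11.70.

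Among the factors, Nfkb2 encodes p100, the precursor of p52. Its brighter probe set (1425902_a_at) read 7.89, 7.11 and 6.75 on the heat-shocked Q111 arrays, against 8.96, 9.48 and 9.06 at 33 °C. On the Q7 arrays it read 8.04, 7.53 and 8.14 after heat shock, against 9.61, 9.91 and 9.31 at 33 °C. Every heat-shocked array was below every array of its line at 33 °C. The difference was -1.91 ± 0.29 in Q111 cells (SE; 3.77-fold lower, adjusted p = 0.000557) and -1.71 ± 0.29 in Q7 cells (3.26-fold lower, adjusted p = 0.00164). The difference between these effects was -0.21, with a 95% interval of -1.12 to 0.70. The other Nfkb2 probe set (1429128_x_at) did not follow: its differences were -0.33 ± 0.20 in Q111 cells (adjusted p = 0.203) and 0.05 ± 0.20 in Q7 cells (adjusted p = 0.902), and its Pearson r with the brighter one over the 12 arrays was 0.08. The Nfkb2 result therefore rests on 1 of 2 probe sets that disagree.

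Rela, the main activating subunit, was among the members that were lower in Q111 cells. It read 9.53, 8.77 and 8.79 after heat shock in Q111 cells, against 10.33, 10.51 and 10.31 at 33 °C. In Q7 cells it read 9.91, 9.59 and 9.77 after heat shock, against 10.39, 10.36 and 10.06 at 33 °C. The groups did not overlap in either line, and the Q7 gap was the narrower. The Q111 difference was -1.35 ± 0.21 (2.55-fold lower, adjusted p = 0.000571). The Q7 difference was -0.51 ± 0.21 and missed the threshold (adjusted p = 0.101), though it passed without replicate 1 of the heat-shocked Q111 cells (adjusted p = 0.0328), which changes only the shared estimate of the spread. The effects differed by -0.84 between lines (95% interval -1.48 to -0.19), which did not pass after adjustment (adjusted p = 0.17). Without replicate 1 of the heat-shocked Q111 cells it did, at -1.09 (adjusted p = 0.0342).

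Relb, the partner of p52, read 7.69, 7.06 and 5.81 in Q111 cells after heat shock, against 7.82, 8.88 and 8.44 at 33 °C. In Q7 cells it read 7.28, 6.91 and 7.26 after heat shock, against 8.27, 9.08 and 8.48 at 33 °C. Heat-shocked arrays were again the lower ones without overlap, but in Q111 cells the highest of them, 7.69, was close to the lowest at 33 °C, 7.82. The difference was -1.53 ± 0.43 in Q111 cells (2.88-fold lower, adjusted p = 0.0151) and -1.46 ± 0.43 in Q7 cells (2.75-fold lower, adjusted p = 0.0285). Without the divergent replicate 3 the Q111 difference was -1.01 (adjusted p = 0.0361). The Q111 call ended without replicate 2 at 33 °C (adjusted p = 0.0634) and under centring on the gene median, where the difference was -0.80 (adjusted p = 0.0589). The Q7 call ended without replicate 2 or 3 of either Q7 group, with adjusted p between 0.0544 and 0.117.

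The 2 inhibitors behaved differently from each other. Nfkbia, the fast-acting IkappaB, was measured by 5 probe sets. Its brightest (1420089_at) read 12.47, 12.40 and 12.28 in Q111 cells after heat shock, against 12.10, 12.68 and 12.31 at 33 °C. In Q7 cells it read 12.31, 12.38 and 12.27 after heat shock, against 12.22, 12.51 and 12.52 at 33 °C. The groups overlapped in both lines. The difference was 0.02 in Q111 cells (95% interval -0.34 to 0.38, adjusted p = 0.927) and -0.10 in Q7 cells (-0.46 to 0.27, adjusted p = 0.728). Without replicate 2 of the Q111 cells at 33 °C, 1420088_at passed in Q111 cells (0.43, adjusted p = 0.0466). Over the 5 probe sets the differences ran between -0.26 and 0.17 in Q111 cells and between -0.63 and 0.04 in Q7 cells, and with all arrays 0 of 5 passed in any comparison by limma. Centring on the gene median makes 4 of the 5 higher in Q111 cells, at 0.64 to 0.90 with adjusted p between 0.00324 and 0.0135, and turns the sign of 1449731_s_at and 1448306_at. Its sign in Q111 cells therefore depends on that scaling. The shift is shared by all probe sets, whose median difference in Q111 cells was then 0.78, against 0.05 as deposited.

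Nfkbie, the slower IkappaB, showed the deepest fall of the members in Q111 cells. Its probe set 1458299_s_at read 6.19, 6.66 and 5.17 after heat shock in Q111 cells, against 8.41, 9.15 and 8.99 at 33 °C. In Q7 cells it read 8.39, 7.56 and 8.14 after heat shock, against 8.82, 9.32 and 9.33 at 33 °C. All arrays after heat shock were below those at 33 °C, and replicate 3 was the lowest of the heat-shocked Q111 arrays. The Q111 difference was -2.85 ± 0.36 (7.19-fold lower, adjusted p = 0.00019), and -2.43 without that replicate. Centred on the median of all probe sets, the Q7 difference was -1.10 and did not pass (adjusted p = 0.0668). As deposited, the Q7 difference was -1.13 ± 0.36 (2.19-fold lower, adjusted p = 0.0439). That call was narrow: it ended under centring on the gene median (-0.78, adjusted p = 0.0632) and when any of 8 arrays was left out (replicates 2 and 3 of Q7 after heat shock, all 3 of Q7 at 33 °C, replicate 1 of Q111 after heat shock, and replicates 2 and 3 of Q111 at 33 °C), with adjusted p between 0.0543 and 0.163.

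The second Nfkbie probe set (1431843_a_at) tracked the first with r = 0.99 over the 12 arrays. It read 6.17, 6.36 and 4.34 in heat-shocked Q111 cells, the last in background range, against 8.28, 8.90 and 8.92 at 33 °C. Its differences were -3.07 ± 0.46 in Q111 cells (8.42-fold lower, adjusted p = 0.000495) and -1.24 ± 0.46 in Q7 cells (adjusted p = 0.0759). Without replicate 3 of the heat-shocked Q111 cells the Q7 difference passed (adjusted p = 0.00422). The effects on Nfkbie differed between lines by -1.72 (95% interval -2.85 to -0.58, adjusted p = 0.113) for the first probe set and by -1.84 (-3.27 to -0.40, adjusted p = 0.176) for the second.

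**Figure D2:**
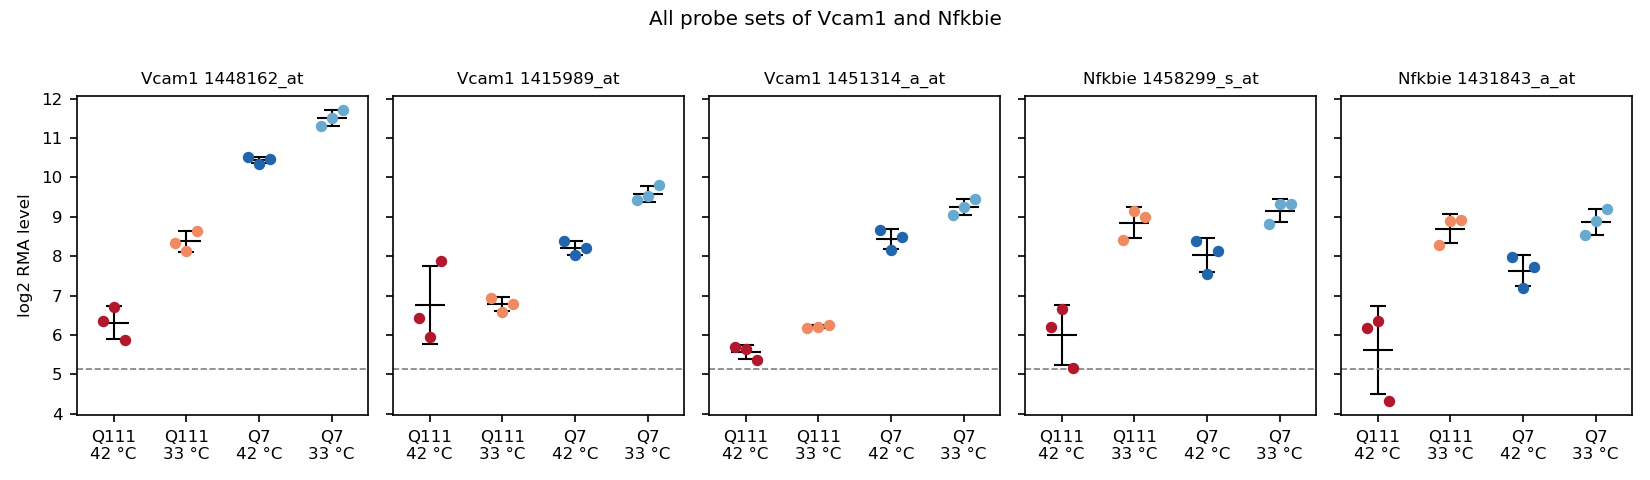
Log2 RMA level on each array of every probe set of Vcam1 (3 probe sets) and Nfkbie (2 probe sets), by group, with mean ± SD and the top of background range dashed. The Nfkbie probe sets run together, and Vcam1 1415989_at departs from the other two on replicate 3 of the heat-shocked Q111 cells, where it read 7.88.

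Of the 2 ubiquitin regulators among the members, Tnfaip3 passed for heat shock in Q7 cells and not in Q111 cells. Its probe set above background range (1433699_at) read 9.16, 8.81 and 8.24 in Q111 cells after heat shock, against 8.22, 8.52 and 8.72 at 33 °C. In Q7 cells it read 7.66, 6.86 and 7.70 after heat shock, against 8.64, 8.48 and 8.67 at 33 °C. The Q111 groups overlapped and the Q7 groups did not. The difference was 0.25 ± 0.27 in Q111 cells (adjusted p = 0.476) and -1.19 ± 0.27 in Q7 cells (2.29-fold lower, adjusted p = 0.00847). The difference of the effects was 1.45 ± 0.39 (95% interval 0.60 to 2.30) and missed the threshold (adjusted p = 0.0776). It passed without replicate 3 of the heat-shocked Q111 cells, at 1.70 (adjusted p = 0.0334), and under centring on the gene median, at 1.82 (adjusted p = 0.0139), a setting that also makes the Q111 value pass at 0.98 (adjusted p = 0.00252). The other Tnfaip3 probe set (1450829_at) was in background range on all 12 arrays.

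Birc3 (1421392_a_at) read 6.41, 6.63 and 5.13 in Q111 cells after heat shock, against 8.24, 8.48 and 8.20 at 33 °C. In Q7 cells it read 5.17, 5.09 and 5.14 after heat shock, against 5.97, 6.73 and 6.09 at 33 °C. The heat-shocked arrays were the lower ones in both lines, and 2 of them in Q7 cells and 1 in Q111 cells were in background range. The Q111 difference was -2.25 ± 0.34 (4.76-fold lower, adjusted p = 0.000496), and -1.79 without replicate 3. The Q7 difference was -1.13 ± 0.34 (adjusted p = 0.0319), and it ended under centring on the gene median (-0.78, adjusted p = 0.0557) and without any 1 heat-shocked Q7 array or replicate 2 or 3 at 33 °C, with adjusted p between 0.0521 and 0.133. The effects differed by -1.12 (95% interval -2.17 to -0.07, adjusted p = 0.261), where the Q7 fall is limited by the background and may be larger than measured. The other Birc3 probe set (1425223_at) was in background range on every array.

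The 2 adhesion genes went opposite ways. Icam1, the single member that was higher after heat shock, read 7.10, 6.85 and 6.24 in Q111 cells after heat shock, against 5.14, 5.29 and 5.20 at 33 °C. In Q7 cells it read 6.5, 6.06 and 6.66 after heat shock, against 5.62, 5.71 and 5.37 at 33 °C. No array at 33 °C reached the heat-shocked arrays of its line, and 1 Q111 array at 33 °C was in background range. The difference was 1.52 ± 0.23 in Q111 cells (2.87-fold, adjusted p = 0.000472) and 0.84 ± 0.23 in Q7 cells (1.79-fold, adjusted p = 0.0196). Without the divergent replicate the Q111 difference was 1.77. The Q7 call ended without replicate 1 or 3 after heat shock or replicate 3 at 33 °C (adjusted p between 0.0542 and 0.0859). The effects differed by 0.68 (95% interval -0.02 to 1.39, adjusted p = 0.313), and this passed only under centring on the gene median among the settings tried (adjusted p = 0.0452).

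Vcam1 was measured by 3 probe sets. The brightest (1448162_at) read 6.35, 6.71 and 5.88 in Q111 cells after heat shock, against 8.34, 8.14 and 8.65 at 33 °C. In Q7 cells it read 10.51, 10.35 and 10.48 after heat shock, against 11.31, 11.51 and 11.70 at 33 °C. The 4 groups did not overlap with each other, in the order Q111 after heat shock, Q111 at 33 °C, Q7 after heat shock and Q7 at 33 °C. The heat shock difference was -2.06 ± 0.21 in Q111 cells (4.17-fold lower, adjusted p = 5.9e-05) and -1.06 ± 0.21 in Q7 cells (2.09-fold lower, adjusted p = 0.00429). The effects differed by -1.0 (95% interval -1.67 to -0.33, adjusted p = 0.117).

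The probe sets of Vcam1 disagreed on heat shock in Q111 cells. Probe set 1451314_a_at fell by 0.64 on the log2 scale in Q111 cells (adjusted p = 0.0118) and by 0.81 in Q7 cells (adjusted p = 0.00488). With replicate number as a block among the Q111 arrays, the Q111 call ended (adjusted p = 0.0598), and centring on the gene median gave 0.09. Probe set 1415989_at read 6.44, 5.96 and 7.88 in heat-shocked Q111 cells, against 6.95, 6.59 and 6.80 at 33 °C. Replicate 3, which was the lowest of its group for 1448162_at, was here the highest. The difference of 1415989_at was -0.02 ± 0.38 in Q111 cells (adjusted p = 0.97), and without replicate 3 it was -0.58 (adjusted p = 0.0441). In Q7 cells it was -1.38 ± 0.38 (adjusted p = 0.022), a call that ended without replicate 2 or 3 of either Q7 group (adjusted p between 0.0598 and 0.0732) and under centring on the gene median (-1.03, adjusted p = 0.0914). The effects differed by 1.36 (95% interval 0.17 to 2.55, adjusted p = 0.227), or by 0.80 without replicate 3 of the heat-shocked Q111 cells.

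For the difference of the heat shock effects, 0 of 19 member probe sets passed by limma, beside 2.68% of all probe sets (2.07% lower and 0.611% higher). By the brightest probe set 0 of 9 genes passed by limma, beside 3.8% of all genes (2.96% lower and 0.841% higher). At an unadjusted p under 0.05 there were 7 of 19, beside 17% of all. These 7 were Rela, both Nfkbie probe sets, Tnfaip3, Birc3 and Vcam1 1448162_at and 1415989_at, with the intervals given above. Tnfaip3 and Vcam1 1415989_at had the larger value in Q111 cells and the others the lower one. With weights estimated per array 4 passed: both Nfkbie probe sets, Tnfaip3 and Vcam1 1448162_at, with adjusted p between 0.0143 and 0.0332. These calls lean on single arrays. Replicate 3 of the heat-shocked Q7 cells had a weight of 5.51, against 1.05 and 0.63 for replicates 1 and 2. Replicate 3 of the heat-shocked Q111 cells had a weight of 0.20. With the actin signal as a covariate 0 of 19 passed by limma and 6 had an unadjusted p under 0.05.

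**Figure D3:**
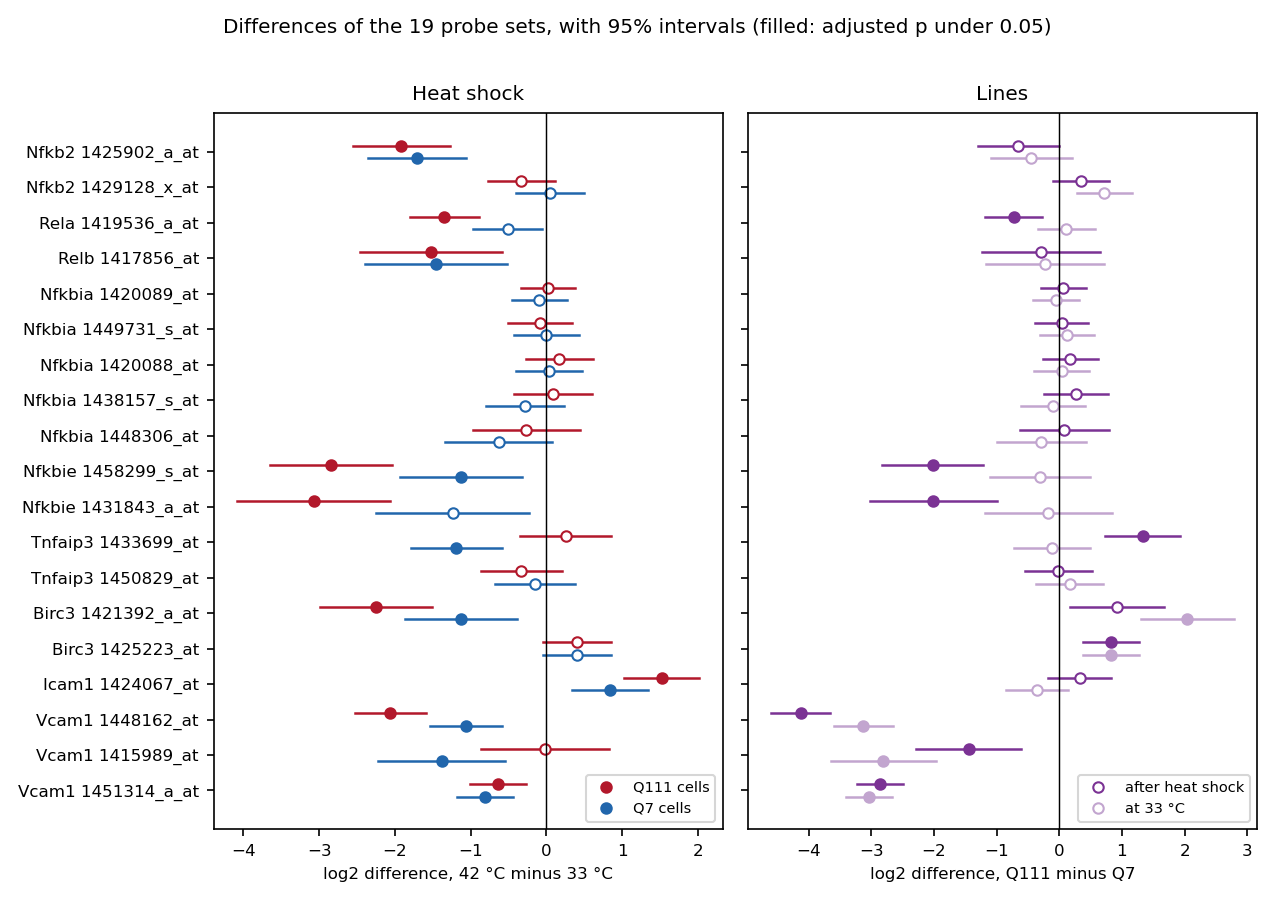
Log2 differences with 95% intervals for all 19 member probe sets: left, heat shock against 33 °C in Q111 and in Q7 cells; right, Q111 against Q7 cells after heat shock and at 33 °C. Filled symbols passed at an adjusted p under 0.05; Icam1 is the one probe set that passed to the right of 0 on the left, and Vcam1 lies farthest to the left of 0 on the right.

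Between the lines at 33 °C, 5 of 19 member probe sets passed, 3 lower and 2 higher in Q111 cells, beside 6.78% of all probe sets (3.62% lower and 3.16% higher). All 5 belong to Vcam1 and Birc3. By their brightest probe set, 2 of 9 genes passed, beside 9.38% of all genes. The arrays did not overlap for 7 of 19, beside 22.4% of all. Untreated arrays of the same replicate number deviated together, and with that number as a block among the untreated arrays 6004 probe sets passed in place of 3054. The added member was then Nfkb2 1429128_x_at, with a difference of 0.72 (adjusted p = 0.0109, against 0.0603 without the block). The brighter Nfkb2 probe set, 1425902_a_at, had the other sign without the block, at -0.45 (adjusted p = 0.609), with arrays that overlapped. The direction for Nfkb2 at 33 °C therefore cannot be read.

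Vcam1 was the member that differed most between the lines. At 33 °C the Q111 arrays read 8.34, 8.14 and 8.65 for 1448162_at, against 11.31, 11.51 and 11.70 on the Q7 arrays. The difference was -3.13 ± 0.21 (8.75-fold lower, adjusted p = 4.43e-06). Probe sets 1415989_at and 1451314_a_at gave -2.81 ± 0.38 (adjusted p = 0.000743) and -3.04 ± 0.17 (adjusted p = 1.14e-06), so all 3 probe sets gave the same direction with intervals that overlap. The endothelial marker Flt1 was also lower in Q111 cells, with a group mean of 7.27 at 33 °C against one of 9.79 for Q7. The endothelial markers Cdh5, Tie1, Tek, Cldn5, Emcn and Pecam1 stayed under 5.14 in every group mean. Some markers of other cell types also differed between the lines at 33 °C. The neural progenitor genes Sox2 and Pax6 averaged 4.71 and 5.00 on the Q111 arrays, against 10.60 and 9.59 on the Q7 arrays. Nes and Fabp7 were also lower in Q111 cells, at 5.68 and 4.24 against 9.28 and 6.83. Vim, Msi1 and Hes5 of the same list were close, at 13.78, 8.14 and 5.33 against 13.80, 7.75 and 5.36. The collagen gene Col1a2 averaged 12.96 in Q111 cells, against 9.47 in Q7 cells. Col1a1 and Col3a1 were closer, at 13.16 and 12.90 against 12.80 and 12.73. The part of these markers in the Vcam1 difference was not tested.

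Birc3 was the opposite case at 33 °C. Its probe set 1421392_a_at read 8.24, 8.48 and 8.20 on the Q111 arrays, against 5.97, 6.73 and 6.09 on the Q7 arrays. The difference was 2.04 ± 0.34 (4.12-fold, adjusted p = 0.00285). The probe set in background range, 1425223_at, also passed (adjusted p = 0.0319), but its size cannot be read at that level, and the call ended without any one of 6 arrays and under centring on the gene median (adjusted p = 0.135). For Rela, Relb, Nfkbie 1458299_s_at and Tnfaip3 the lines differed at 33 °C by 0.11, -0.23, -0.30 and -0.12, with intervals that included 0. Icam1 differed by -0.36 (adjusted p = 0.578), with arrays that did not overlap.

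After heat shock 8 of 19 member probe sets passed between the lines, 6 lower and 2 higher in Q111 cells, beside 15.4% of all probe sets (10.7% lower and 4.73% higher). By the brightest probe set, 4 of 9 genes passed, 3 lower and 1 higher, beside 19.4% of all genes. The arrays did not overlap for 10 of 19, beside 31.6% of all. The count was 7 without replicate 3 of the heat-shocked Q111 cells, and 4 without replicate 1 or replicate 3 of the heat-shocked Q7 cells. Under centring on the gene median 9 passed, 4 lower and 5 higher.

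Vcam1 1448162_at, at 6.35, 6.71 and 5.88 on the heat-shocked Q111 arrays against 10.51, 10.35 and 10.48 on the heat-shocked Q7 arrays, differed by -4.13 ± 0.21 (17.5-fold lower, adjusted p = 1.04e-06). Probe set 1451314_a_at gave -2.86 ± 0.17 (adjusted p = 2.41e-06). Probe set 1415989_at gave -1.45 ± 0.38 (adjusted p = 0.0263), or -2.01 without replicate 3 of the heat-shocked Q111 cells; its call ended without replicate 1 or 2 of that group or replicate 1 or 3 of the heat-shocked Q7 cells (adjusted p between 0.067 and 0.0947) and under centring on the gene median (-1.07, adjusted p = 0.0799).

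Nfkbie was 4.06-fold lower in Q111 cells than in Q7 cells after heat shock by 1458299_s_at (-2.02 ± 0.36, adjusted p = 0.00372) and 4.03-fold lower by 1431843_a_at (-2.01 ± 0.46, adjusted p = 0.0133). Without replicate 3 of the heat-shocked Q111 cells these were -1.60 and -1.37 (adjusted p = 0.00548 and 0.00977). The second ended without replicate 1 or 3 of the heat-shocked Q7 cells (adjusted p = 0.0587 and 0.0521). Tnfaip3 was the member higher in Q111 cells by a probe set above background, at 1.33 ± 0.27 (2.51-fold, adjusted p = 0.00756). Its call ended when only the groups compared were fitted (adjusted p = 0.0641). The mean with its probe set in background range did not pass either (0.66, adjusted p = 0.0568). Rela was lower in Q111 cells, with a difference of -0.73 ± 0.21 (adjusted p = 0.0369), but this ended without any one of 6 arrays, the divergent one among them (-0.61, adjusted p = 0.104), and under centring on the gene median (-0.35, adjusted p = 0.154). Birc3 1421392_a_at differed by 0.92 ± 0.34 (adjusted p = 0.0933) and passed without the divergent array, at 1.39 (adjusted p = 0.0019), and under centring on the gene median, at 1.30 (adjusted p = 0.0085). The Birc3 probe set in background range, 1425223_at, passed as higher (adjusted p = 0.0195), but its size cannot be read at that level. That call ended without the divergent array or replicate 1 or 3 of the heat-shocked Q7 cells (adjusted p between 0.0576 and 0.0874).

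The rest of the pathway was followed through 5 lists of genes, each gene by its brightest probe set. The list of kinases of the IKK cascade also holds their partner proteins Tab1, Tab2, Tab3 and Ikbkg, and is called the kinase list below. Of its genes 11 of 12 were measured. In Q111 cells 8 were lower and 2 higher after heat shock, and in Q7 cells 2 were lower and 2 higher, beside the 27.2% lower of all genes in Q111 cells and 16.8% in Q7 cells. The median was -0.61 in Q111 cells and -0.16 in Q7 cells, beside -0.02 and 0.0026 over all genes. Tab3, an adaptor of the TAK1 kinase, gave -2.08 ± 0.20 in Q111 cells (adjusted p = 3.6e-05) and -0.93 ± 0.20 in Q7 cells (adjusted p = 0.00544). Ikbkg (NEMO), the scaffold of the IKK complex, gave -1.97 ± 0.29 in Q111 cells (adjusted p = 0.000401) and -1.49 ± 0.29 in Q7 cells (adjusted p = 0.00316), though its next brightest probe set did not pass in either line (adjusted p = 0.312 and 0.597). Map3k8 (Tpl2), a kinase upstream of ERK and IKK, was higher by 1.5 ± 0.34 in Q111 cells (adjusted p = 0.00536) and by 1.64 ± 0.34 in Q7 cells (adjusted p = 0.00502). Without replicate 3 of the heat-shocked Q111 cells the Q111 counts were 7 lower and 2 higher; under centring on the gene median they were 3 and 3. With the actin signal as a covariate they were 5 and 0 in Q111 cells, and in Q7 cells 0 and 0 by limma, with 1 at an unadjusted p under 0.05. In Q7 cells that signal is hard to tell apart from heat shock.

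Of 24 measured ligands, receptors and adaptors that feed the pathway, 7 were lower and 0 higher in Q111 cells by limma (also 7 and 0 at an unadjusted p under 0.05), and 5 were lower and 1 higher in Q7 cells. The lower share, 29.2% in Q111 cells and 20.8% in Q7 cells, was close to that of all genes, 27.2% and 16.8%. Under centring on the gene median 4 were lower and 12 higher in Q111 cells. Traf1, an adaptor of TNF receptors, read 5.80, 6.16 and 5.61 in Q111 cells after heat shock, against 7.67, 8.44 and 7.99 at 33 °C. Its difference was -2.18 ± 0.24 in Q111 cells (adjusted p = 8.89e-05) and -2.26 ± 0.24 in Q7 cells (adjusted p = 0.000106). The receptor gene Tlr2 gave -2.66 ± 0.39 in Q111 cells (adjusted p = 0.000461) and -1.78 ± 0.39 in Q7 cells (adjusted p = 0.00702). Of the heat-shocked arrays, 1 Q111 array read Tlr2 and 1 Q7 array read Traf1 in background range, so these falls may be larger than measured. Il1rap, the accessory chain of the IL-1 receptor, gave -1.46 ± 0.18 in Q111 cells and -2.12 ± 0.18 in Q7 cells (adjusted p = 0.000152 and 2.79e-05). Its next brightest probe set passed in neither line (adjusted p = 0.474 and 0.694).

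Among the remaining factors and atypical inhibitors a nuclear coactivator was higher in both lines. Nfkbiz (IkappaB zeta), an IkappaB that acts in the nucleus, read 10.90, 10.74 and 10.89 in Q111 cells after heat shock, against 9.98, 9.37 and 9.58 at 33 °C. In Q7 cells it read 10.14, 10.26 and 10.36 after heat shock, against 8.82, 8.68 and 8.96 at 33 °C. The difference was 1.2 ± 0.17 in Q111 cells (adjusted p = 0.000319) and 1.43 ± 0.17 in Q7 cells (adjusted p = 0.000158). Its dimmer probe set 1457404_at passed in both lines, and 1448728_a_at in neither. Bcl3, another nuclear IkappaB, was lower in Q111 cells, at -1.51 ± 0.26 (adjusted p = 0.00105). Of the 9 genes of this list 1 was higher and 2 lower in Q111 cells, and 2 were higher and 1 lower in Q7 cells, beside 18.5% higher and 27.2% lower of all genes in Q111 cells and 11.2% and 16.8% in Q7 cells. Under centring on the gene median 5 were higher and 1 lower in Q111 cells. Without replicate 3 of the heat-shocked Q111 cells 1 was higher and 1 lower in Q111 cells, and 2 were higher and 3 lower in Q7 cells. Of the 12 other negative regulators 7 were lower (58.3%) and 1 higher in Q111 cells, and 4 lower (33.3%) and 2 higher in Q7 cells, against the same shares of all genes. Under centring on the gene median 5 were lower and 4 higher in Q111 cells. Usp4, a deubiquitinase, gave -1.98 ± 0.27 and -1.26 ± 0.27 in Q111 and Q7 cells (adjusted p = 0.000249 and 0.00529). Its dimmer probe set 1442319_at had the other sign and did not pass, at 0.60 and 0.21 (adjusted p = 0.233 and 0.756). With the mean of the probe sets of Usp4 the Q7 call ended. Tnip1 (ABIN1), a partner of A20, gave -1.83 ± 0.27 and -1.23 ± 0.27 (adjusted p = 0.00049 and 0.00723). Otulin, which cleaves linear ubiquitin chains, gave -1.78 ± 0.28 and -1.39 ± 0.28 (adjusted p = 0.000646 and 0.00422).

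Other target genes moved in both directions. Of 36 measured, 9 were higher and 4 lower in Q111 cells after heat shock, and 3 higher and 11 lower in Q7 cells. The higher share was 25% in Q111 cells and 8.33% in Q7 cells, beside 18.5% and 11.2% of all genes, and the lower share 11.1% and 30.6%, beside 27.2% and 16.8%. Without replicate 3 of the heat-shocked Q111 cells the Q111 counts were 12 and 3, and under centring on the gene median 26 and 2. That centring also turns the balance in Q7 cells, to 10 higher and 4 lower. With the actin signal as a covariate the Q7 counts were 0 and 0 by limma, with 5 at an unadjusted p under 0.05. In that line the signal is hard to tell apart from heat shock. Saa3, an acute phase gene, gave 2.68 ± 0.51 in Q111 cells (adjusted p = 0.00208), with 2 of 3 arrays at 33 °C in background range, and Plau (urokinase) gave 2.09 ± 0.32 (adjusted p = 0.000542). In Q7 cells the chemokine gene Ccl2 gave -1.60 ± 0.16 (adjusted p = 7.62e-05), and Ccl20 and the metalloprotease gene Mmp3 gave -2.03 ± 0.29 and -2.01 ± 0.39 (adjusted p = 0.000503 and 0.00337). Of the heat-shocked Q7 arrays 2 read Ccl20 in background range.

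**Figure D4:**
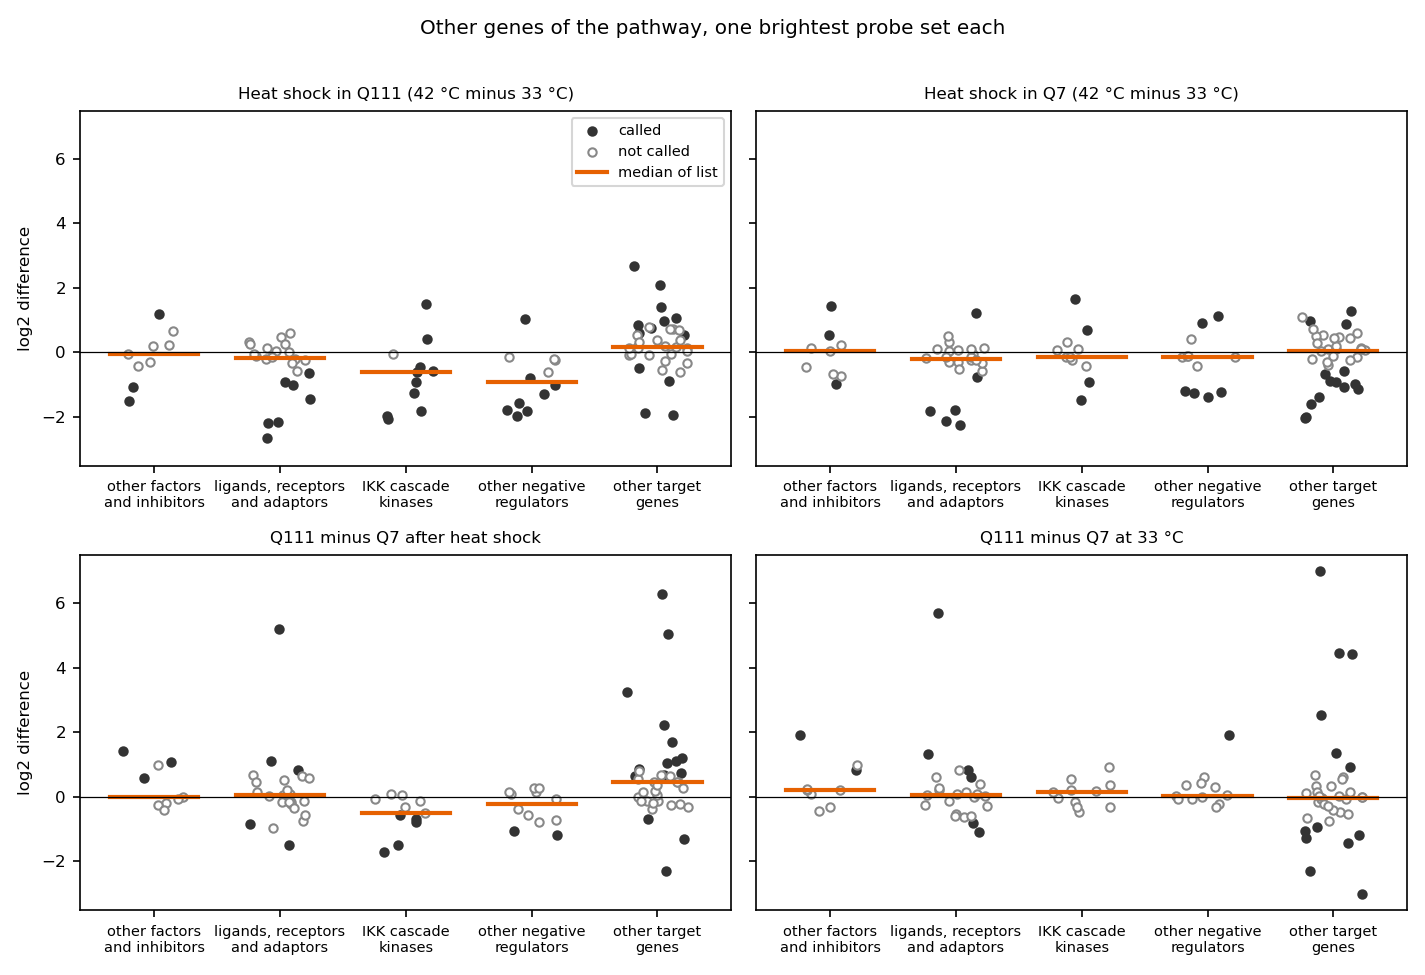
Log2 difference of each measured gene of the 5 pathway lists (brightest probe set), 1 point per gene, for heat shock in Q111 and in Q7 cells (top) and for Q111 minus Q7 after heat shock and at 33 °C (bottom); filled points passed at an adjusted p under 0.05 and the orange line is the list's median. The median of the kinase list, which also holds partner proteins, lies at -0.61 in Q111 cells after heat shock. The highest point, Ccl5 at 7.0, is in the lines at 33 °C.

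Between the lines, the largest gaps lay in receptors and targets and not in the factors. Ltbr, the lymphotoxin beta receptor, which signals through Relb and p52, read 9.56, 10.61 and 10.28 in Q111 cells at 33 °C, against 3.88, 4.77 and 4.73 in Q7 cells, all in background range. Set against the top of background range, the Q111 level was at least 32.1-fold higher at 33 °C (adjusted p = 4.46e-06). After heat shock 2 of 3 Q7 arrays were in background range, and the measured difference was 5.21 ± 0.39 (adjusted p = 1.36e-05). The chemokine gene Ccl5 read 12.23, 12.13 and 12.11 on the Q111 arrays at 33 °C, against 5.21, 4.95 and 5.31 on the Q7 arrays, a difference of 7.0 ± 0.56 (adjusted p = 1.43e-05), with 1 of the Q7 arrays in background range. Cxcl10 and the prostaglandin E synthase gene Ptges differed by 4.47 ± 0.35 and 4.43 ± 0.37 at 33 °C (adjusted p = 1.18e-05 and 2.01e-05), and 2 of 3 Q7 arrays read Ptges in background range, so that its gap may be larger than measured. Mmp3 was the opposite, at -3.02 ± 0.39 (adjusted p = 0.000503). Of the 36 other targets 6 were higher and 7 lower in Q111 cells at 33 °C, and 12 higher and 3 lower after heat shock, beside 4.52% higher and 4.86% lower of all genes at 33 °C and 5.5% and 13.9% after heat shock. After heat shock these counts were 20 and 2 under centring on the gene median. Of the kinase list 0 genes passed at 33 °C by limma (2 at an unadjusted p under 0.05). After heat shock 5 were lower and 0 higher in Q111 cells. The TAK1 partner Tab1 (-1.72 ± 0.28, adjusted p = 0.00193) and the kinase Map3k14 (NIK, -1.5 ± 0.34, adjusted p = 0.0124) were among them. Under centring on the gene median 2 were lower, and 4 without replicate 3 of the heat-shocked Q111 cells. The Map3k14 call ended without replicate 3 of the heat-shocked Q7 cells (adjusted p = 0.0546), and of the heat-shocked Q111 arrays 2 read Tab1 in background range. A dimmer Map3k14 probe set did not pass (adjusted p = 0.395).

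The genes whose levels ran most like those of the members were found by Pearson r over the 12 arrays, among 12194 genes above background range. The points share 4 groups of 3 arrays, so the values describe these arrays only. For Rela the closest were Crtc3 (r = 0.995), Ncoa6 and Plekhg2 (both 0.990). For Nfkbie they were Pald1 (0.993), Capn10 (0.989) and Fbh1 (0.988), and for Nfkb2 they were Rnf157 (0.993), Cenpe (0.989) and Gon4l (0.988). Vcam1 ran most like Lurap1l, Cd34 and Hoxb13 (0.983 each), and Icam1 like Tnnc2 (0.976). Nfkbia, which varied least, had the weakest likeness, with Ddx39a at 0.857.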

How the data were processed

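RNA of 12 samples was hybridised to 1-colour arrays, 3 per group. The deposited values are log2 levels made by the authors with RMA, per the submitters' processing notes; the software, its version and the chip definition behind them are not given in the labels or files. Replicate arrays were not copies of each other: 10 to 60 probe sets had identical values in each of 12 pairs. Differences between group means were fitted with limma 3.58.1 (R 4.3.3) to 45037 probe sets, leaving out 64 controls, with 1 shared estimate of the spread over all 12 arrays, two-sided, and Benjamini-Hochberg adjustment over all probe sets. The fit was tested on simulated data. Probe sets were named from the platform annotation: 34945 had 1 gene, 932 several and 9160 none. All member probe sets were named, and of each list and comparison up to 4 genes with the largest difference among those that passed without overlap of the arrays. Members and lists were chosen with earlier results of these data known. Replicate numbers were shared between groups. Deviations of same-numbered arrays correlated in the untreated groups (0.574, 0.422 and 0.616). In the Q111 groups the values were 0.118, 0.257 and 0.304, and replicate 1 had a higher one with another number (0.197). They were mixed in the Q7 groups (0.118, -0.393 and -0.113) and between the lines after heat shock (0.357, -0.511 and -0.269). Promoter windows were read with Python 3.11.15. The alternatives tried were normalization, filters, array weights, replicate blocks, an RNA quality covariate and leaving out each array.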

Additional observations from a re-analysis of the deposited data

Results flagged for a closer look

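Of the genes in the pathway lists, 4 had heat shock effects that differed between the lines by the test of the difference itself. These were 4 of 92 measured list genes (4.35%), beside 3.8% of all genes. Nlrc5, a regulator of NF-kappaB and of MHC class I genes, read 7.76, 7.99 and 7.71 in Q111 cells after heat shock, against 9.83, 9.25 and 9.12 at 33 °C. In Q7 cells it read 8.03, 7.58 and 8.04 after heat shock, against 7.74, 7.61 and 7.10 at 33 °C. The Q111 effect minus the Q7 effect was -1.98 ± 0.33 (SE, limma, adjusted p = 0.0143). Over the alternatives it ran between -2.13 and -1.61, with adjusted p up to 0.0539, and 3 of 24 ended the call, among them leaving out replicate 3 of the heat-shocked Q7 cells.

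For the other 3 genes the heat shock effect was higher (less negative or more positive) in Q111 cells than in Q7 cells. The difference of effects was 2.79 ± 0.55 for Mmp3 (adjusted p = 0.0285), 2.18 ± 0.40 for Ccl20 (adjusted p = 0.0221) and 1.12 ± 0.23 for Ccl2 (adjusted p = 0.0328). Of 24 alternatives, 8 ended the call of Mmp3 (adjusted p up to 0.104), 7 that of Ccl20 (up to 0.0712) and 14 that of Ccl2 (up to 0.121), most of them by leaving out 1 array. For Mmp3 these arrays were any of Q111 at 33 °C and replicates 1 and 3 of heat-shocked Q7. For Ccl20 they were replicates 1 and 3 of Q111 at 33 °C, replicate 3 of heat-shocked Q7, and replicates 2 and 3 of Q7 at 33 °C. For Ccl2 they were all but replicates 2 and 3 of heat-shocked Q111. Ccl20 was in background range on 5 of the 6 Q111 arrays, all 3 at 33 °C among them, so a fall as in Q7 cells could not have been measured there and the size of its difference cannot be read. Mmp3 read 5.33, 5.41 and 5.60 in Q111 cells at 33 °C, close above background range, which limits it in the same way.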

How the results depend on the processing

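Without 1 array the counts of all probe sets ran between 14563 and 18887 for heat shock in Q111 cells (18952 with all arrays), 7344 and 13295 in Q7 cells (10864), 280 and 1352 for the difference of effects (1209), 3935 and 8079 between the lines after heat shock (6932), and 2163 and 3800 at 33 °C (3054). The member counts ran between 9 and 10, 4 and 10, 0 and 1, 4 and 8, and 4 and 5 in the same order.

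For heat shock in Q111 cells the count was 7349 with the actin covariate, 11177 at an adjusted p under 0.01, 32640 when centred on the gene median, 8462 with the mean of a gene's probe sets and 8758 with the brightest. In Q7 cells it was 567, 6377 and 18235 with the actin covariate, the 0.01 threshold and array weights, and 5319 and 5525 with the mean and the brightest probe set. The actin signal did not overlap between the temperatures in Q7 cells, so that covariate is hard to tell apart from heat shock there. For the difference of effects it was 291, 171 and 3991 with the actin covariate, the 0.01 threshold and array weights. Between the lines after heat shock it was 3334 at 0.01, 14042 with array weights, 11189 when centred, 3777 and 4018 per gene by mean and brightest, and 3745 with only the groups compared. At 33 °C it was 1870 at 0.01, and 1965 and 1962 per gene. Higher calls were 86.4% of calls when centred and 47.1% as deposited in Q111 cells, 71.3% and 41.4% in Q7 cells, 60.6% and 22.7% for the difference, and 73.8% and 30.7% between the lines after heat shock. Array weights were estimated gene by gene, since the REML estimate did not converge.

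Member probe sets that passed for the difference of effects numbered 4 with array weights, 2 when centred and 1 after quantile normalization, and 1 gene passed by its brightest probe set (0 as reported, by limma, with 7 probe sets at an unadjusted p under 0.05). In Q7 cells they numbered 0 with the actin covariate (1 at an unadjusted p under 0.05), 4 at 0.01 and 5 after quantile normalization. Between the lines after heat shock they numbered 4 at 0.01 and 3 with only the groups compared. When centred, the sign turned for 6 of 19 member probe sets in Q111 cells, among them Nfkbia 1449731_s_at (0.64), which then passed, and Vcam1 1451314_a_at (0.092), which had passed as deposited. It turned for 3 of 19 in Q7 cells, 5 for the difference of effects, 2 between the lines after heat shock and 0 at 33 °C. It also turned for Lcn2 in Q7 cells with the actin covariate (0.20). The cause of these changes was not tested.

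With replicate number as a block among the untreated arrays, where the numbers pair the arrays, 6004 probe sets passed. Among the Q111 arrays alone it gave 15548, and over all arrays 19342 for heat shock in Q111 cells and 10938 in Q7 cells. In the Q7 comparison, where the numbers do not pair the arrays, the full block ended the call of Nfkbie 1458299_s_at (adjusted p = 0.0619).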
